A study of Homo sapiens with 26 samples.

Results

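Iron and heme handling was followed through 10 genes, chosen by name: SLC40A1, HMOX1, FTL, FTH1, TFRC, SLC11A1, SLC48A1, NCOA4, BLVRB and HFE. All 10 have a row in each of the 3 deposited count tables, which hold 19206 genes for Biowire macrophages, 18771 for digested control macrophages and 21991 for Biowire cardiomyocytes. All 10 also passed the filter on low counts in every fit.

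RNA was sequenced from 26 libraries of cells made from human embryonic stem cells, in 8 groups. Biowires are engineered heart microtissues, built here from macrophages (MF), cardiomyocytes (CM) and FB cells, which the labels do not spell out and which are read here as fibroblasts. The macrophages came from the line hES2 (WT) and the cardiomyocytes from the line ESI17 (WT), so each cell type rests on 1 line. Biowire macrophages were taken at day 14 and had grown alone (MF), with FB (FB+MF) or with both other cell types (CM+FB+MF), in 3 libraries a group. The digested controls are macrophages of the same 3 combinations, also in 3 libraries a group, to which the labels give a digestion of 40 min and no culture day. Cardiomyocytes were taken at day 3, in 4 libraries without macrophages (CM+FB) and 4 with them (CM+FB+MF). The labels give all groups the same medium, which holds transferrin, and the same enzyme digestion with flavopiridol, an inhibitor of transcription, before a sort with antibodies to CD14 and CD45. Whether replicates came from separate cultures is not given by the labels, and the p-values therefore cover the spread between these libraries alone, which may be technical. RNA was bulk RNA of sorted cells, in which fewer cells of a type and less RNA per cell cannot be told apart.

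Macrophages take up iron on transferrin and as heme from engulfed cells, store it in ferritin and return it to the blood through ferroportin. Inside the cell, iron regulatory proteins bind short hairpins called iron responsive elements when iron is scarce. Bound to the start of a ferritin or ferroportin transcript they hold back its translation, and bound to the end of the transferrin receptor transcript they protect it from decay. Heme itself displaces the repressor BACH1 from genes such as HMOX1, and the factor NRF2 activates many of the same genes.

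The iron responsive elements of 3 members are printed because the level of the TFRC transcript is known to depend on them. They were found by searching each untranslated region for a bulged C, 5 further bases and a loop of CAGTG and any base, in GENCODE 29 transcripts on GRCh38, on the transcript strand. Capitals mark the bulged C and the loop. Results were kept only for the 8 members with a matched promoter (below), and so left out for HMOX1 and FTH1. That limit has no bearing on untranslated regions, and nothing is said here of elements in either gene. Among the 8, FTL and SLC40A1 hold 1 match each in the 5′ untranslated region. TFRC holds 5 matches in the 3′ untranslated region, where SLC48A1 and HFE also match (below). All 5 bases on either side of the loop can pair (a full stem), with G to U pairs allowed, in each printed site but the third of TFRC, where 3 of 5 can.
FTL, 5′ untranslated region, chr19:48965333-48965360, plus strand: gtctcttgCttcaaCAGTGTttggacgg
SLC40A1, 5′ untranslated region, chr2:189580664-189580691, minus strand: tccaacttCagctaCAGTGTtagctaag
TFRC site 1, 3′ untranslated region, chr3:196050982-196051009, minus strand: ataattatCggaagCAGTGCcttccata
TFRC site 2, chr3:196050578-196050605, minus strand: cacattatCgggagCAGTGTcttccata
TFRC site 3, chr3:196050531-196050558, minus strand: gtttttacCtaccaCAGTGTctgtatcg
TFRC site 4, chr3:196050513-196050540, minus strand: gtctgtatCggagaCAGTGAtctccata
TFRC site 5, chr3:196050466-196050493, minus strand: gtaattatCgggaaCAGTGTttcccata

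A match with a full stem was present in 0.127% of 18170 5′ untranslated regions and in 0.506% of 18769 3′ untranslated regions. TFRC was the 1 gene with 4 or more full stems in its 3′ untranslated region. The letters alone, without the stem, were in 8.39% of 5′ and 30.4% of 3′ untranslated regions. SLC48A1 (2 matches) and HFE (1 match) held the letters in the 3′ untranslated region without a full stem.

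The promoters of the 3 members that differed most between Biowire groups are printed from RefSeq (GRCh38.p14), as the 250 bases before the annotated start. RefSeq promoters were matched for 8 of the 10 members, all but HMOX1 and FTH1. The window searched was these 250 bases, without the first 50 bases of the transcript. Both strands were searched for the E-box CACGTG, the antioxidant response core TGACNNNGC, which NRF2 and BACH1 are known to bind, and the hypoxia response core ACGTG, which overlaps the E-box. Capitals mark a match.
TFRC, chr3:196082091-196082340, minus strand: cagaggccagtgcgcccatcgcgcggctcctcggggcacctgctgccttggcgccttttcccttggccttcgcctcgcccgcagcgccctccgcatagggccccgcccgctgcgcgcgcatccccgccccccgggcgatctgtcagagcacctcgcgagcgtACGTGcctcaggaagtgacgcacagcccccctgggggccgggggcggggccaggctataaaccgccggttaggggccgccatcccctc
SLC11A1, chr2:218382023-218382272, plus strand: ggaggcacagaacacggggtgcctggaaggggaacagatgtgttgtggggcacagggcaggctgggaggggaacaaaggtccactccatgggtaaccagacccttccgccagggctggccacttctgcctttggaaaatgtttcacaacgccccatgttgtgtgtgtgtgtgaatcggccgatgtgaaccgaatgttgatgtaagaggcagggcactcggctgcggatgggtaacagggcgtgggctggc
SLC48A1, chr12:47772988-47773237, plus strand: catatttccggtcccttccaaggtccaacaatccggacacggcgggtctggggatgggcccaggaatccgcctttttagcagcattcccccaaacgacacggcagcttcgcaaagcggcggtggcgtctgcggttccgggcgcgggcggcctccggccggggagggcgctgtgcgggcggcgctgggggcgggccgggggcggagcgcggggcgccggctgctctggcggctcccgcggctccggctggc

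TFRC held 1 ACGTG at position -88 from its start, while the SLC11A1 and SLC48A1 windows held none of the 3 motifs. Of the other members, FTL (position -11) and HFE (position -10) held ACGTG. Over 35116 promoter windows of the same length, ACGTG was found in 18.5%, TGACNNNGC in 10.9% and CACGTG in 6.34%. These are matches of letters, not sites of binding.

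Libraries held 6983800 to 13665322 counts in Biowire macrophages, 10132651 to 12717157 in digested macrophages and 12604684 to 30936910 in cardiomyocytes. Levels are given as CPM, the counts of a gene scaled to the total of its library, and differences as log2 fold changes ± SE from edgeR, with p-values adjusted over all genes tested and a call at adjusted p under 0.05. The labelled cell types were checked on marker lists. 18 macrophage markers summed to 12142 to 18379 CPM in every macrophage library, and 18 cardiomyocyte markers to 140335 to 160819 CPM in every cardiomyocyte library. The macrophage sums were lowest in Biowire MF, at 12142 to 13889 CPM. They were 16649 to 18379 CPM in Biowire FB+MF, 16881 to 18258 in Biowire CM+FB+MF and 15579 to 16902.5 in the digested groups. In Biowire CM+FB+MF against MF, 14 of these 18 were called higher and 2 lower, beside 17.8% and 19.8% of all genes. In Biowire over digested MF, 13 were lower and 2 higher, beside 22.8% and 23.2%. CD14, an antigen of the sort, was 375 ± 17.7 CPM in digested MF and 115 ± 26.4, 402 ± 51.5 and 969.9 ± 63.6 CPM in the Biowire groups MF, FB+MF and CM+FB+MF (SD, n = 3). Macrophage libraries from CM+FB+MF also held cardiomyocyte transcripts: 17 measured markers summed to 1269 to 3016 CPM in Biowire CM+FB+MF, against 48.8 to 78.9 in Biowire MF, where 7 of the 17 including TNNT2 were at 0, and 24.8 to 69.8 in Biowire FB+MF. The digested CM+FB+MF libraries held 251 to 460 CPM of the 18 markers, against 37.2 to 53.8 in the other digested groups. 15 fibroblast markers summed to 530.2 to 656 CPM in Biowire MF, 671 to 766 for FB+MF and 407 to 490.5 for CM+FB+MF. They summed to 274 to 298, 1144 to 1892 and 1016 to 3659 CPM in the digested groups in the same order. Of 15 erythroid markers, 4 or 5 had a row in the macrophage tables, and their sum was at most 2.96 CPM.

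Macrophages that had spent 14 days in tissue with cardiomyocytes and fibroblasts held much less TFRC, SLC48A1, HMOX1 and SLC40A1 transcript than macrophages alone, less FTH1 and BLVRB, and far more SLC11A1. With fibroblasts only, SLC40A1 was lower and SLC11A1 and TFRC higher, with no call for the heme genes SLC48A1, HMOX1 and BLVRB. The TFRC call there was lost when most single libraries were left out (below). In the digested controls no member passed the test. The fit called 3 of 10 members in Biowire FB+MF against MF, 2 higher and 1 lower, beside 6.16% of 13952 genes tested (4.03% higher, 2.14% lower). In Biowire CM+FB+MF against MF it called 7, 1 higher and 6 lower, beside 37.6% of all genes (17.8% higher, 19.8% lower). In Biowire CM+FB+MF against FB+MF it called 9, 1 higher and 8 lower, beside 35.5% (16.4% higher, 19.1% lower). Libraries of the pair of groups compared did not overlap for 5, 8 and 10 members, beside 23.9%, 48.9% and 47.9% of all genes. The median log2 difference of the members was 0.12, -0.88 and -0.64 in these 3 comparisons, against values within 0.01 of 0 over all genes. Each Biowire group serves in more than 1 comparison.

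**Figure D1:**
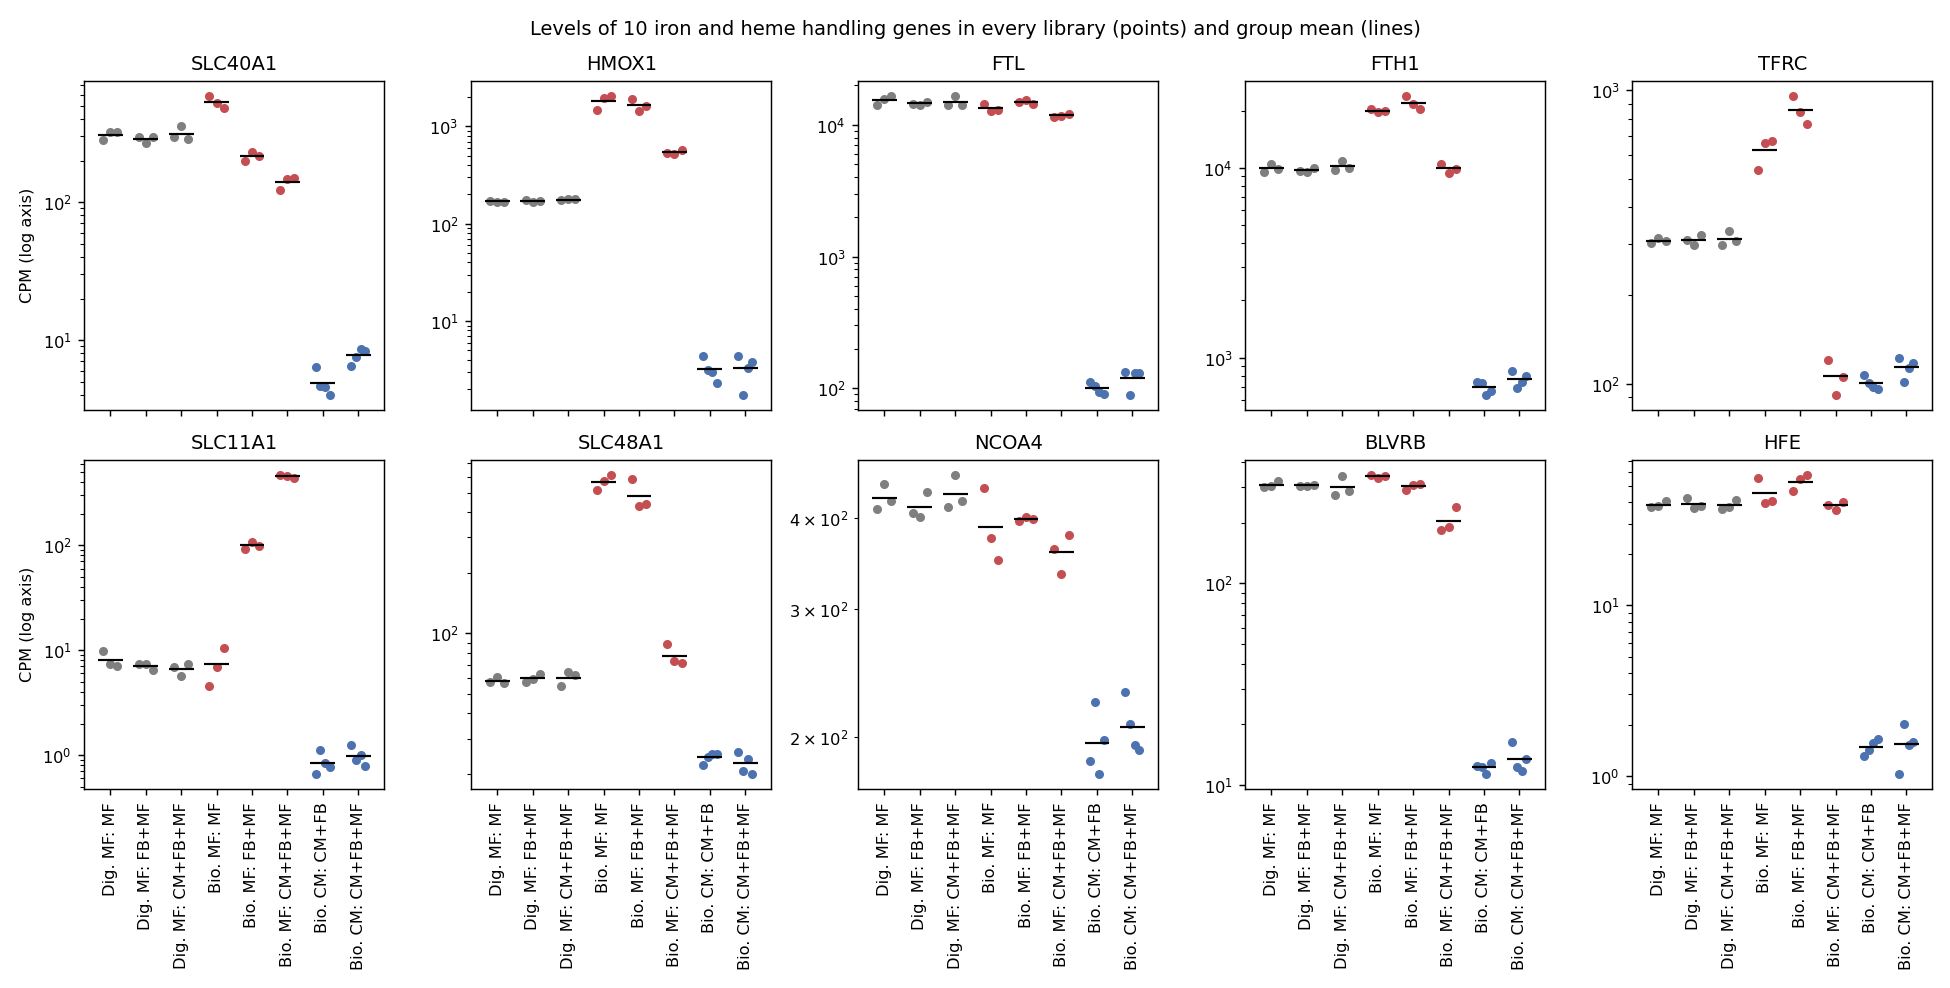
Level of each of the 10 genes (CPM, log axis) in every library (points) with the group mean (line), for digested macrophages (grey), Biowire macrophages (red) and Biowire cardiomyocytes (blue). The 9 digested macrophage libraries lie close together for each gene, while TFRC, SLC48A1, HMOX1, SLC40A1 and SLC11A1 differ between the Biowire groups.

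Per kilobase of exon (RPKM, with GENCODE 29 lengths), the members spanned a wide range within a library. In Biowire MF the ferritin chains led, with FTL at 15205 ± 1124 and FTH1 at 12382 ± 216 RPKM (SD, n = 3). HMOX1 followed at 1000.5 ± 173 RPKM and BLVRB at 329.6 ± 5.21 RPKM. SLC48A1 (164 ± 13.8), SLC40A1 (153 ± 16), TFRC (117 ± 14.3) and NCOA4 (95.1 ± 11.4 RPKM) came next, where the SD ranges of SLC48A1 and SLC40A1 overlapped, as did those of TFRC and NCOA4. HFE (8.48 ± 1.62) and SLC11A1 (1.91 ± 0.784 RPKM) were lowest. In Biowire CM+FB+MF the middle of this order was different, with SLC11A1 at 118 ± 3.37 RPKM above SLC40A1 at 40.5 ± 4.37, SLC48A1 at 22.3 ± 2.74 and TFRC at 19.9 ± 2.77 RPKM.

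TFRC encodes the transferrin receptor, which carries transferrin iron into the cell. It was 536, 662 and 674 CPM in Biowire MF, 957, 841 and 771 in Biowire FB+MF and 121, 91.4 and 106 in Biowire CM+FB+MF. The 3 groups did not overlap, with FB+MF highest and CM+FB+MF far below the others. Against MF, TFRC rose in FB+MF by a log2 difference of 0.50 ± 0.13 (edgeR adjusted p = 0.0344). This call was lost when any 1 library other than FB+MF replicate 3 was left out (adjusted p 0.0778 to 0.117). Against MF it fell 5.89-fold in CM+FB+MF (log2 difference -2.56 ± 0.14, edgeR adjusted p = 1.02e-08). Against FB+MF it fell 8.30-fold (log2 difference -3.05 ± 0.14, edgeR adjusted p = 5.37e-09). Cardiomyocyte libraries held 96.2 to 123 CPM of TFRC.

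SLC11A1 encodes NRAMP1, a transporter that moves iron and manganese out of the phagosome of macrophages. It was 4.6, 6.88 and 10.6 CPM in Biowire MF, 92.9, 106 and 99.0 in FB+MF and 464, 458 and 439 in CM+FB+MF. The groups were far apart, in the order MF, FB+MF and CM+FB+MF. It rose 13.8-fold in FB+MF against MF (log2 difference 3.78 ± 0.19, edgeR adjusted p = 1.02e-07) and 61.3-fold in CM+FB+MF against MF (5.94 ± 0.20, adjusted p = 2.98e-10). Between CM+FB+MF and FB+MF the rise was 4.45-fold (log2 difference 2.15 ± 0.17, edgeR adjusted p = 5.27e-07). Digested macrophages held 5.62 to 9.79 CPM, which overlaps the range of Biowire MF. Cardiomyocyte libraries held 0.655 to 1.26 CPM, far below the Biowire CM+FB+MF macrophages.

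HFE encodes a membrane protein that binds the transferrin receptor and takes part in sensing iron. It was 55.4, 40.0 and 40.9 CPM in Biowire MF, 46.5, 54.9 and 57.7 in FB+MF and 38.8, 35.9 and 40.5 in CM+FB+MF. MF overlapped both other groups, and the CM+FB+MF libraries all lay below the FB+MF libraries. HFE fell in CM+FB+MF against FB+MF by 0.50 ± 0.16 on the log2 scale (edgeR adjusted p = 0.0236). The call was lost without CM+FB+MF replicate 2 or 3 or without FB+MF replicate 2 or 3 (adjusted p 0.0604 to 0.0787). Against MF, the difference was 0.25 ± 0.15 for FB+MF (edgeR adjusted p = 0.444) and -0.25 ± 0.16 for CM+FB+MF (adjusted p = 0.238).

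SLC48A1 encodes HRG1, which carries heme out of the phagolysosome into the cytosol. It was 517, 576 and 611 CPM in Biowire MF, 585, 428 and 441 in FB+MF and 88.1, 72.6 and 70.9 in CM+FB+MF. The first 2 groups overlapped and the CM+FB+MF libraries lay far below them. It fell 7.36-fold in CM+FB+MF against MF (log2 difference -2.88 ± 0.15, edgeR adjusted p = 7.29e-09) and 6.45-fold against FB+MF (-2.69 ± 0.15, adjusted p = 2.95e-08). Between FB+MF and MF the difference was -0.19 ± 0.14 (edgeR adjusted p = 0.528).

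HMOX1 encodes heme oxygenase 1, which opens the heme ring and frees its iron. It was 1465, 1948 and 2056 CPM in Biowire MF, 1910.4, 1445 and 1605 in FB+MF and 539, 516 and 571 in CM+FB+MF. MF and FB+MF overlapped, with a log2 difference of -0.10 ± 0.13 (edgeR adjusted p = 0.767), and CM+FB+MF lay below both. HMOX1 fell 3.36-fold in CM+FB+MF against MF (log2 difference -1.75 ± 0.13, edgeR adjusted p = 2.18e-07) and 3.14-fold against FB+MF (-1.65 ± 0.13, adjusted p = 6.89e-07). BLVRB encodes biliverdin reductase B, which reduces a breakdown product of heme. It was 344, 334 and 343 CPM in Biowire MF, 291, 307 and 311 in FB+MF and 183, 191 and 238 in CM+FB+MF. The 3 groups did not overlap, in falling order. BLVRB fell 1.68-fold in CM+FB+MF against MF (log2 difference -0.75 ± 0.10, edgeR adjusted p = 7.48e-05) and 1.53-fold against FB+MF (-0.61 ± 0.10, adjusted p = 0.000504). FB+MF against MF gave -0.13 ± 0.10 (edgeR adjusted p = 0.563).

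Ferritin stores iron in a shell of heavy chains, which oxidise it (FTH1), and light chains, which help the mineral form (FTL). FTH1 was 20380.5, 19683 and 20004 CPM in Biowire MF, 23901, 21639 and 20499.9 in FB+MF and 10499.8, 9446 and 9822 in CM+FB+MF. The CM+FB+MF libraries all lay far below the others, and every FB+MF library lay above every MF library by a small margin. FTH1 fell 2.02-fold in CM+FB+MF against MF (log2 difference -1.02 ± 0.10, edgeR adjusted p = 2.40e-06) and 2.28-fold against FB+MF (-1.19 ± 0.10, adjusted p = 9.69e-07). Between FB+MF and MF the difference of 0.17 ± 0.10 did not pass (edgeR adjusted p = 0.400).

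FTL was 14488, 12722 and 12841 CPM in Biowire MF, 14958, 15388 and 14401 in FB+MF and 11539, 11728 and 12132 in CM+FB+MF. The CM+FB+MF libraries were the lowest, and MF replicate 1 reached into the range of FB+MF. FTL fell 1.30-fold in CM+FB+MF against FB+MF (log2 difference -0.38 ± 0.09, edgeR adjusted p = 0.00694). Against MF, CM+FB+MF gave -0.19 ± 0.09 (edgeR adjusted p = 0.137) and FB+MF gave 0.19 ± 0.09 (adjusted p = 0.314). The second passed when MF replicate 1 was left out (0.30, edgeR adjusted p = 0.0390). NCOA4 encodes the receptor that brings ferritin to the lysosome. Its levels were 439.7, 375 and 349.7 CPM in Biowire MF, 396, 401 and 398 in FB+MF and 363, 334 and 378 in CM+FB+MF, with no call in any of the 3 comparisons. MF overlapped both other groups, and CM+FB+MF lay below FB+MF by a log2 difference of -0.19 ± 0.11 (edgeR adjusted p = 0.203).

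FTL and FTH1 transcripts together took 3.34% ± 0.131 (SD, n = 3) of all counts in Biowire MF, 3.69% ± 0.198 for FB+MF and 2.17% ± 0.0477 for CM+FB+MF. The FTL to FTH1 ratio of counts was 0.642 to 0.711 in MF, 0.626 to 0.711 for FB+MF and 1.10 to 1.24 for CM+FB+MF, so the CM+FB+MF libraries lay apart from the others. In the digested groups the share was 2.42% to 2.54% on average and the ratio 1.41 to 1.67. Per kilobase of exon, FTL lay above FTH1 in Biowire MF (RPKM above) and FB+MF (16988 against 13614 RPKM), where FTH1 had more counts. That order depends on the exon lengths used, 878 bases for FTL and 1617 for FTH1. Both genes have many pseudogenes in GENCODE 29 (25 named for FTH1 and 16 for FTL), among which the counting could split reads, so their counts are uncertain. FTH1P3, which has a row of its own in each table, stayed between 1.12 and 2.31 CPM on average in the macrophage groups. The levels of the other pseudogenes were not read, so this value leaves both ferritin counts as uncertain as before.

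**Figure D2:**
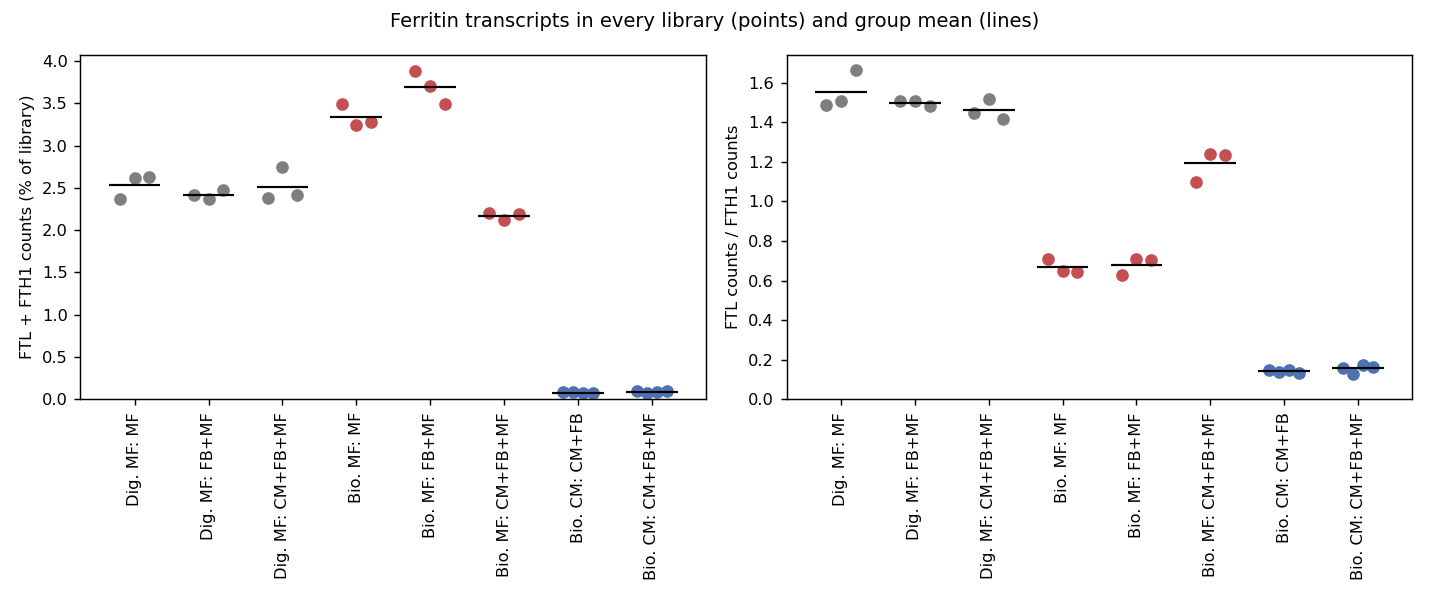
Share of all counts taken by FTL and FTH1 (left, percent of the library) and the ratio of FTL to FTH1 counts (right) in every library (points) with group means (lines). Biowire MF and FB+MF have the highest shares and a ratio of 0.626 to 0.711, CM+FB+MF macrophages have a share of 2.17% and a ratio of 1.10 to 1.24, and cardiomyocytes have a share of 0.0796% and 0.0890%.

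SLC40A1 encodes ferroportin, the known exporter of iron from the cell. It was 587, 519.9 and 478 CPM in Biowire MF, 199.6, 231 and 216 in FB+MF and 122, 147 and 149 in CM+FB+MF. The 3 groups did not overlap, in falling order. SLC40A1 fell 2.40-fold in FB+MF against MF (log2 difference -1.26 ± 0.12, edgeR adjusted p = 2.24e-05) and 3.82-fold in CM+FB+MF against MF (-1.93 ± 0.12, adjusted p = 4.22e-08). The further fall from FB+MF to CM+FB+MF was 1.59-fold (log2 difference -0.67 ± 0.12, edgeR adjusted p = 0.000652). Digested macrophages held 270.0 to 355 CPM of SLC40A1, between Biowire MF and Biowire FB+MF.

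**Figure D3:**
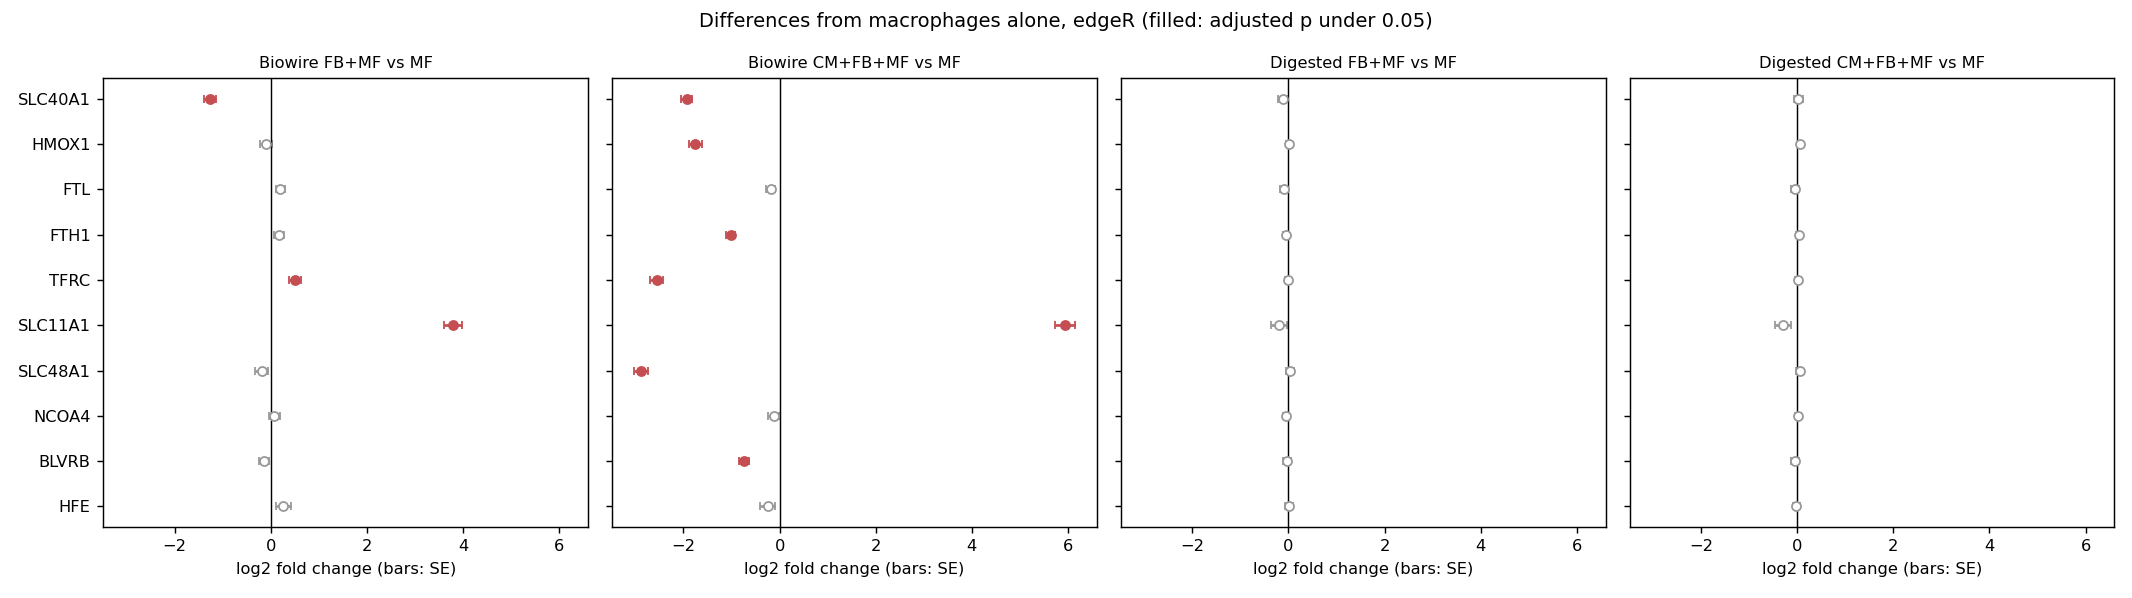
Log2 fold change (points, bars are SE) of each member against macrophages alone, in Biowires (left pair of panels) and in the digested controls (right pair). Filled points passed adjusted p 0.05. The points in the digested panels lie between -0.29 and 0.06, while the Biowire CM+FB+MF panel runs from -2.88 to 5.94.

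The digested controls hold the same cell combinations, and the labels do not say whether their cells had been in a Biowire, which bears on every value set against them. No member passed in FB+MF against MF, CM+FB+MF against MF or CM+FB+MF against FB+MF (0 of 10 in each by edgeR, 0 at an unadjusted p under 0.05 and 0 by DESeq2). The background of calls was 1.6%, 2.69% and 0.239% of 12960 genes. HMOX1 was 172, 168 and 169 CPM in digested MF, 174, 168 and 173 in FB+MF and 174, 180.5 and 178 in CM+FB+MF, and the CM+FB+MF libraries were the highest by a narrow margin. TFRC was 302, 313 and 307 CPM, then 309, 297 and 322, then 298, 331 and 307 in the same order. Libraries of the 3 groups overlapped for 9 of 10 members in each comparison with CM+FB+MF, the exception being HMOX1, and for all 10 in FB+MF against MF. Groups did not overlap for 10%, 7.3% and 11.6% of all genes in CM+FB+MF against MF, CM+FB+MF against FB+MF and FB+MF against MF.

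The difference between Biowire and digested effects was tested as an interaction in a fit of all 18 macrophage libraries. For FB+MF against MF it was called for 2 members, SLC11A1 higher and SLC40A1 lower, beside 4.84% of 14381 genes (2.72% higher, 2.12% lower). For CM+FB+MF against MF it was called for 7 members beside 31.2%: SLC11A1 was higher (14.4% of all genes), and SLC40A1, HMOX1, FTH1, TFRC, SLC48A1 and BLVRB were lower (16.8%). For CM+FB+MF against FB+MF it was called for 8 beside 28.4%, with SLC11A1 higher (13.2%) and those 6 and FTL lower (15.1%). These comparisons share libraries with each other and with the Biowire comparisons above. SLC11A1 had interaction values of 3.98 ± 0.25, 6.24 ± 0.25 and 2.26 ± 0.23 (edgeR adjusted p = 4.66e-09, 7.96e-13 and 4.98e-07). TFRC in FB+MF against MF missed the threshold here (0.50 ± 0.15, edgeR adjusted p = 0.0664) and passed by DESeq2 (adjusted p = 0.0272) and without Biowire FB+MF replicate 3 (0.58, edgeR adjusted p = 0.0407). FTL in CM+FB+MF against FB+MF (-0.42 ± 0.13, edgeR adjusted p = 0.0228) was lost without digested CM+FB+MF replicate 2 (0.0630) or digested FB+MF replicate 2 (0.0509). HFE in the same comparison missed the threshold (-0.47 ± 0.18, edgeR adjusted p = 0.0605) and passed without Biowire FB+MF replicate 1 (-0.55, adjusted p = 0.0363).

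Biowire macrophages were also set beside digested macrophages of the same combination, although setting, table and any sequencing batch cannot be told apart. Macrophages alone had far more HMOX1 and SLC48A1 and more FTH1, TFRC and SLC40A1 in the Biowire libraries than in the digested control libraries. These 5 members were called higher and FTL and NCOA4 lower, beside 46% of all genes (23.2% higher, 22.8% lower). Libraries did not overlap for 6 members in MF, 7 with FB and 8 with CM and FB, beside 55.9%, 60% and 56.1% of all genes. HMOX1 was 9.35-fold higher (log2 difference 3.22 ± 0.11, edgeR adjusted p = 2.49e-14), and its 3 Biowire libraries, from 1465 to 2056 CPM, lay far above the digested ones, from 168 to 172 CPM. SLC48A1 was 8.53-fold higher (3.09 ± 0.13, edgeR adjusted p = 3.70e-13), at 517 to 611 CPM against 56.4 to 60.4 CPM. TFRC was 1.77-fold higher (0.82 ± 0.11, edgeR adjusted p = 3.18e-06), FTH1 1.76-fold (0.81 ± 0.09, adjusted p = 2.67e-07) and SLC40A1 1.5-fold (0.58 ± 0.11, adjusted p = 0.000219). FTL fell by 0.40 ± 0.09 on the log2 scale (edgeR adjusted p = 0.00147) and NCOA4 by 0.33 ± 0.10 (adjusted p = 0.00889), and the libraries of both overlapped.

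In FB+MF the setting comparison called HMOX1 (log2 difference 3.12), SLC48A1 (2.87), SLC11A1 (3.66), TFRC (1.32) and FTH1 (1.04) higher and SLC40A1 (-0.56) lower, beside 47.1% of all genes (23.1% higher, 24% lower). In CM+FB+MF it called SLC11A1 (5.92) and HMOX1 (1.42) higher, beside 50.5% of all genes (24.4% higher, 26.1% lower). TFRC (-1.75), SLC40A1 (-1.36), BLVRB (-0.76), FTL (-0.53), NCOA4 (-0.46) and FTH1 (-0.23) were lower. The 9.35-fold HMOX1 difference of macrophages alone was thus 8.70-fold in FB+MF and 2.68-fold in CM+FB+MF. SLC40A1 lay above its digested level in MF and below it in FB+MF and CM+FB+MF.

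The scaling between libraries matters for the small differences in this comparison. Scaled by library totals in place of TMM factors, an alternative chosen after seeing the data, the median of all genes moved up by 0.20, 0.15 and 0.19 on the log2 scale in MF, FB+MF and CM+FB+MF. The share of calls that were higher moved from 50.5% to 68.2%, from 49.0% to 62.4% and from 48.4% to 64.0%. NCOA4 in MF (-0.13, edgeR adjusted p = 0.170) and FTH1 in CM+FB+MF (-0.04, adjusted p = 0.615) then lost their calls. SLC48A1 in CM+FB+MF (0.36, edgeR adjusted p = 0.0139) and HFE in FB+MF (0.43, adjusted p = 0.00559) gained one. The FTH1 call in CM+FB+MF was lost also with RLE size factors (edgeR adjusted p = 0.0577), with only both compared groups in the fit (0.125), and without Biowire replicate 2 or 3 or digested replicate 2 (0.105 to 0.158). Without Biowire MF replicate 3, NCOA4 in MF lost its call (-0.24, edgeR adjusted p = 0.0613) and SLC11A1 in MF passed (-0.63, adjusted p = 0.00527). In FB+MF, fitting only both groups brought NCOA4 (-0.20, edgeR adjusted p = 0.0143), BLVRB (-0.16, 0.0351) and HFE (0.29, 0.0392) past the threshold, and HFE passed without Biowire FB+MF replicate 1 (adjusted p = 0.0413).

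**Figure D4:**
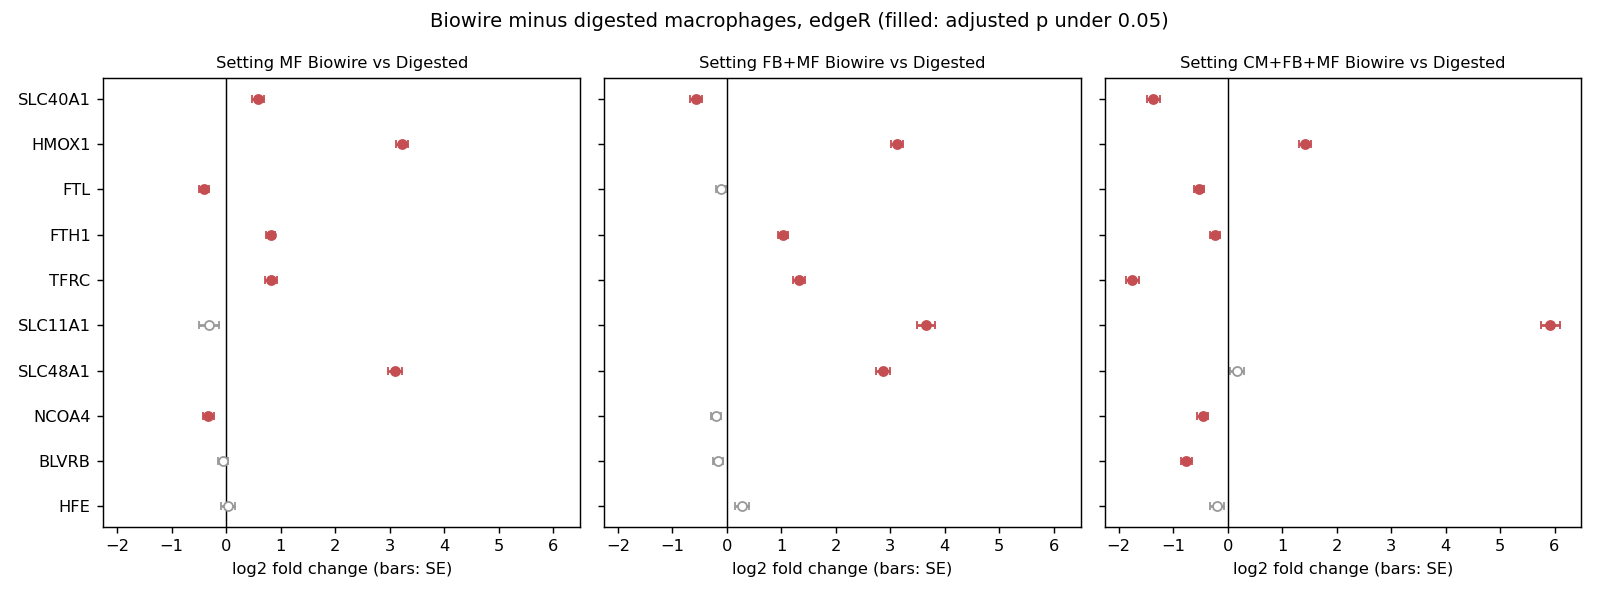
Log2 fold change (points, bars are SE) of Biowire over digested macrophages for each member, in MF (left), FB+MF (middle) and CM+FB+MF (right). Filled points passed adjusted p 0.05. HMOX1 lies at 3.22, 3.12 and 1.42, SLC48A1 at 3.09, 2.87 and 0.17, and TFRC at 0.82, 1.32 and -1.75.

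Cardiomyocytes held much less of most members than macrophages, in a table of their own. Per kilobase, FTH1 was the most abundant member there, at 431 ± 34.1 RPKM in CM+FB and 476 ± 41.9 RPKM in CM+FB+MF (SD, n = 4), above FTL at 114 ± 11 and 137 ± 24.1 RPKM. Its libraries ranged from 635 to 747 CPM in CM+FB and from 688 to 845 CPM in CM+FB+MF and overlapped. Ferritin transcripts took 0.0796% ± 0.00638 (SD, n = 4) and 0.0890% ± 0.00862 of all counts, and the FTL to FTH1 ratio was 0.129 to 0.175 over the 8 libraries. HMOX1 stayed between 1.74 and 4.43 CPM. SLC11A1 stayed between 0.655 and 1.26 CPM. NCOA4 (178 to 231 CPM), TFRC (96.2 to 123) and SLC48A1 (19.9 to 25.8) were measured well in both groups, which overlapped for each.

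Adding macrophages to the tissue was followed by a call for 1 member in cardiomyocytes, beside 12.7% of 16046 genes (6.79% higher, 5.88% lower). SLC40A1 was 6.34, 4.62, 4.6 and 4.00 CPM in CM+FB and 6.54, 7.50, 8.57 and 8.41 in CM+FB+MF. The groups did not overlap (17.6% of all genes did not), although CM+FB replicate 1 and CM+FB+MF replicate 1 nearly met. It rose 1.56-fold (log2 difference 0.64 ± 0.17, edgeR adjusted p = 0.0226), and 3 members passed at an unadjusted p under 0.05 and 1 by DESeq2. The call was lost with the replicate number as a block (log2 difference 0.65, edgeR adjusted p = 0.0563) and without CM+FB replicate 2, 3 or 4 or CM+FB+MF replicate 3 or 4 (adjusted p 0.0523 to 0.0779). Macrophage transcripts moved with it: 18 macrophage markers summed to 35.9 to 89.9 CPM in CM+FB+MF and 7.88 to 9.65 CPM in CM+FB, where C1QA was at 0. Their part in the SLC40A1 difference was not tested. FTL was 112, 103, 94.4 and 89.9 CPM in CM+FB and 133, 88.9, 130.5 and 130.3 in CM+FB+MF, where replicate 2 lay apart from the others and inside the range of CM+FB. FTL did not pass with all libraries (0.26 ± 0.12, edgeR adjusted p = 0.198) and passed without that replicate (0.38, adjusted p = 0.00658), as did TFRC (0.22, adjusted p = 0.0483).

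The rest of the pathway was read from 7 lists with 108 other genes, chosen with earlier results of these data known. In Biowire CM+FB+MF against MF, 87 were tested, of which 8 rose and 35 fell, with a median log2 difference of -0.34, beside 17.8% of all genes higher and 19.8% lower. In FB+MF against MF, 4 rose and 1 fell, with a median of 0.01, beside 4.03% higher and 2.14% lower. In the digested comparisons FB+MF against MF, CM+FB+MF against MF and CM+FB+MF against FB+MF, 0, 2 and 0 of 86 passed, beside 1.6%, 2.69% and 0.239% of all genes. The cardiomyocyte transcripts in the Biowire CM+FB+MF libraries, given above, move with these counts and their part in them was not tested.

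Of 10 targets of BACH1 and NRF2 other than the members, 10 were lower in Biowire CM+FB+MF than in MF, with a median log2 difference of -1.48, beside 19.8% of all genes lower. None of the 10 passed in FB+MF against MF by edgeR, with 1 at an unadjusted p under 0.05 and 1 by DESeq2. NQO1, a quinone reductase, was 115 ± 33.2 CPM in Biowire MF, 101 ± 12.6 for FB+MF and 18.6 ± 3.83 for CM+FB+MF (SD, n = 3), a log2 difference of -2.63 ± 0.20 from MF (edgeR adjusted p = 2.01e-07). SLC7A11, the cystine importer, was 38.4 ± 20.6, 33.0 ± 11.7 and 1.04 ± 0.475 CPM (log2 difference -5.20 ± 0.49, edgeR adjusted p = 2.04e-06). PIR, pirin, an iron-binding nuclear protein, fell by 1.65 ± 0.17 on the log2 scale (edgeR adjusted p = 3.77e-06). Against the digested controls, 9 of 10 of these genes were higher in Biowire MF (median 1.03) beside 23.2% of all genes, with the smallest p for PIR (2.13), NQO1 (2.55) and ME1, malic enzyme (1.19). This comparison shares the Biowire MF libraries with the one before. BACH1 itself was 190.4 ± 28.4, 194 ± 12.1 and 220.0 ± 5.47 CPM in Biowire MF, FB+MF and CM+FB+MF. NFE2L2, which encodes NRF2, was 94.1 ± 3.45 CPM in Biowire MF and 323 ± 26.2 in digested MF (log2 difference -1.97 ± 0.09, edgeR adjusted p = 1.89e-12).

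Of 16 genes of heme synthesis tested, 10 were lower and 1 higher in Biowire CM+FB+MF against MF (median -0.71), beside 19.8% of all genes lower and 17.8% higher. ABCB6, a porphyrin transporter, was 61.3 ± 8.07 CPM in MF, 44.4 ± 7.94 for FB+MF and 9.76 ± 1.02 for CM+FB+MF (log2 difference from MF -2.65 ± 0.17, edgeR adjusted p = 6.56e-08). FECH, ferrochelatase, which inserts iron into the ring, was 111 ± 7.12, 80.8 ± 6.30 and 41.1 ± 3.01 CPM. It fell by 1.44 ± 0.11 on the log2 scale in CM+FB+MF (edgeR adjusted p = 3.94e-07) and by 0.43 ± 0.11 in FB+MF (adjusted p = 0.0332). UROD, an earlier enzyme of the pathway, fell by 1.41 ± 0.13 in CM+FB+MF (edgeR adjusted p = 1.88e-06). Of 25 genes of iron-sulfur cluster assembly, 8 fell and 1 rose (median -0.47), beside 19.8% of all genes lower and 17.8% higher. The share called in either direction was near the 37.6% of all genes. HSPA9, a mitochondrial chaperone (-0.91 ± 0.12), FDX1L, a ferredoxin (-1.31 ± 0.24), and ISCU, the scaffold on which the cluster is built (-0.61 ± 0.12), had the smallest p (edgeR adjusted p = 3.65e-05, 0.000720 and 0.000921).

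**Figure D5:**
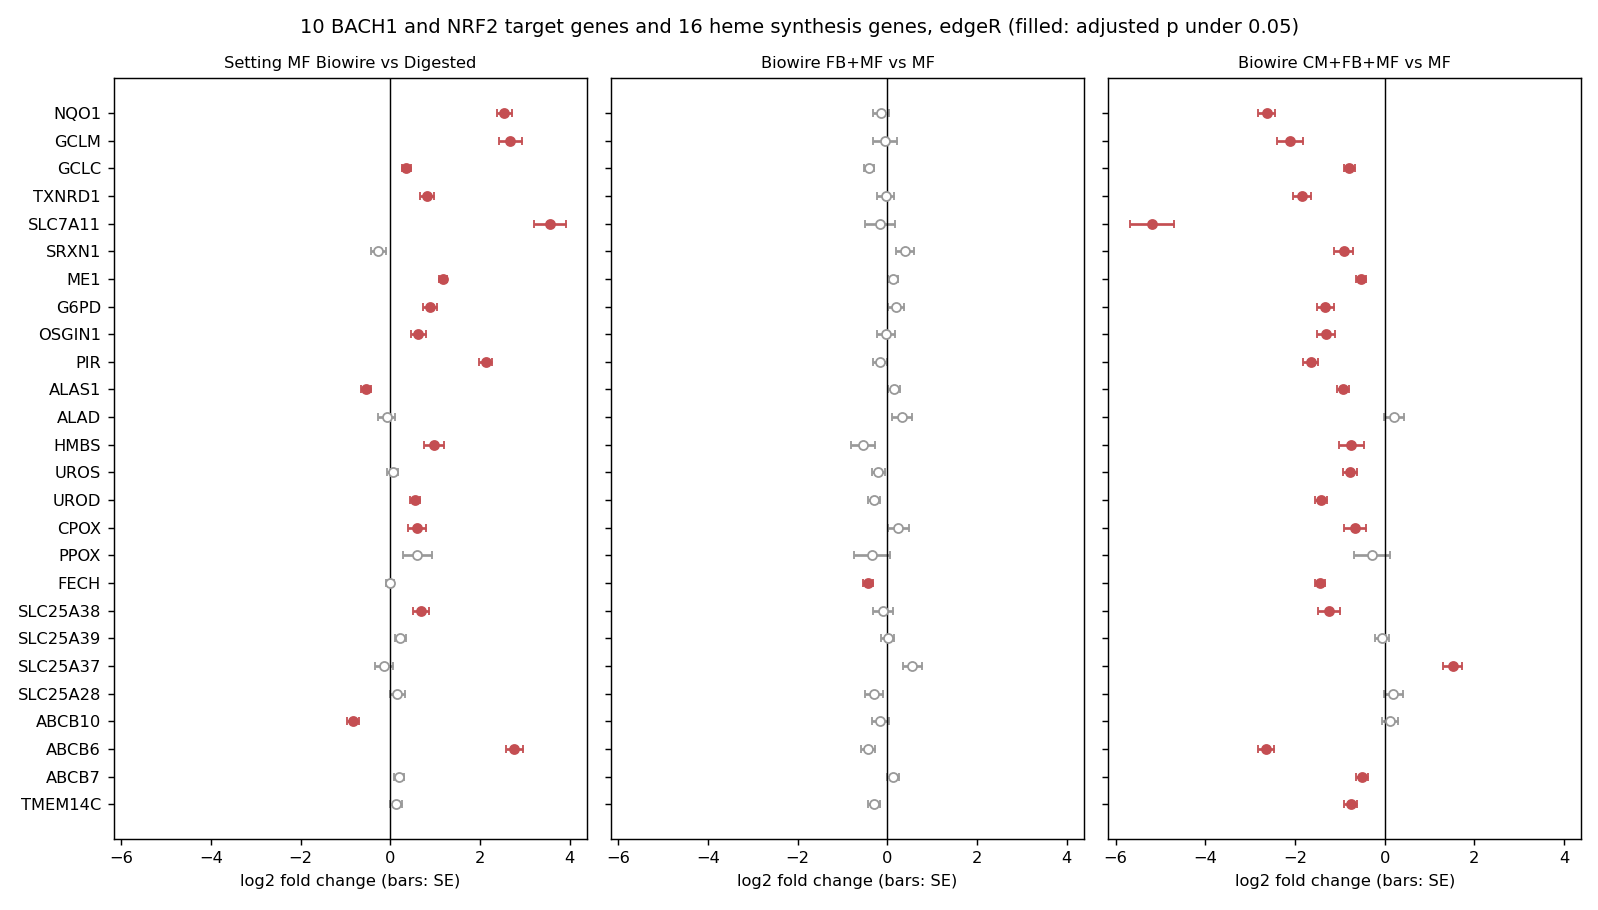
Log2 fold change (points, bars are SE) of 10 BACH1 and NRF2 target genes and 16 heme synthesis genes in Biowire over digested MF (left), Biowire FB+MF over MF (middle) and Biowire CM+FB+MF over MF (right). Filled points passed adjusted p 0.05. In the right panel 10 of 10 targets and 10 of 16 synthesis genes are filled and below 0, while the middle panel has 1 filled point, FECH.

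Of 11 genes of heme scavenging and breakdown, 3 were higher and 3 lower in CM+FB+MF against MF, beside 17.8% and 19.8% of all genes. FLVCR2, a choline transporter first described as a heme importer, was 7.47 ± 0.573 CPM in Biowire MF, 24.8 ± 2.97 for FB+MF and 47.4 ± 4.37 for CM+FB+MF. It rose by 2.66 ± 0.17 in CM+FB+MF (edgeR adjusted p = 4.15e-08) and by 1.77 ± 0.16 in FB+MF (adjusted p = 2.07e-05). LRP1, the receptor for heme bound to hemopexin, rose by 1.00 ± 0.09 and 0.89 ± 0.09 (edgeR adjusted p = 9.95e-07 and 2.91e-05). CD163, the receptor for hemoglobin bound to haptoglobin and also one of the macrophage markers, rose in FB+MF (1.22 ± 0.13, edgeR adjusted p = 7.95e-05), from 1042 ± 158 to 2382 ± 125 CPM. POR, the reductase that feeds electrons to heme oxygenase, was 332 ± 43.9, 301 ± 41.7 and 86.2 ± 4.58 CPM in the 3 Biowire groups and fell by 1.95 ± 0.13 in CM+FB+MF (edgeR adjusted p = 6.46e-08). BLVRA, the other biliverdin reductase, lay at 83.5 ± 7.73, 86.7 ± 10.9 and 83.4 ± 0.757 CPM in the Biowire groups and at 156 ± 4.05 CPM in digested MF (log2 difference of Biowire over digested MF -1.10 ± 0.09, edgeR adjusted p = 6.02e-09).

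Among the other uptake genes, SLC39A8, a metal importer, rose in CM+FB+MF against MF (1.47 ± 0.23, edgeR adjusted p = 0.000199; 1 of 6 tested passed, beside 17.8% of all genes higher). STEAP3, which reduces iron in endosomes, rose in FB+MF (1.47 ± 0.23, edgeR adjusted p = 0.00125), at 38.7 ± 6.87 CPM against 14.2 ± 4.93 in MF and 13.8 ± 1.32 in CM+FB+MF. Of 6 genes of export and storage, of which 3 passed beside 37.6% of all genes, the iron chaperones PCBP1 (0.33 ± 0.10) and PCBP2 (0.43 ± 0.13) rose and ABCB8, a mitochondrial transporter (-0.43 ± 0.14), fell in CM+FB+MF (edgeR adjusted p = 0.0235, 0.0156 and 0.0281). Of 13 genes of iron sensing and its regulators, 3 fell, a share near the 19.8% of all genes that were lower: MAFF (-1.35 ± 0.22), a partner of BACH1 and NRF2, ACO1 (-0.62 ± 0.13), which encodes iron regulatory protein 1, and KEAP1 (-0.46 ± 0.13), which restrains NRF2 (edgeR adjusted p = 0.000262, 0.00152 and 0.0119).

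In Biowire over digested MF, the other genes taken by the rule were lower for SLC11A2 (-0.58), MCOLN1 (-0.51), PCBP1 (-1.03), PCBP2 (-1.29), MAFF (-2.24), ACO1 (-0.82), FLVCR2 (-1.70), ABCB10 (-0.82) and ALAS1 (-0.54). They were higher for STEAP3 (1.80), POR (1.49), ABCB6 (2.77), ISCA1 (0.96), IBA57 (1.02) and NFU1 (0.63). PCBP4 was at 0 in all digested MF libraries and at 0.414 ± 0.529 CPM in Biowire MF, too low for a fold. In cardiomyocytes with macrophages, 4 of 97 genes rose and 2 fell, smaller shares than the 6.79% and 5.88% of all genes, so the counts are no result about these lists. CD163 went from 0.161 ± 0.168 to 5.20 ± 4.23 CPM and HAMP, the iron hormone hepcidin, from 0.151 ± 0.139 to 0.999 ± 0.713 CPM (log2 differences 4.92 ± 0.71 and 2.59 ± 0.65, edgeR adjusted p = 0.000396 and 0.0191, SD over n = 4). HERC2 (-0.47 ± 0.06), an E3 ligase, and MAFG (-0.49 ± 0.10) fell, and the iron-sulfur genes BOLA3 (0.46 ± 0.10) and HSCB (0.42 ± 0.12) rose. Macrophage markers move with these differences, as given above for SLC40A1, and so do 12 markers of cycling cells, at 452 to 502 CPM with macrophages and 208 to 252 CPM without. Their part was not tested.

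The genes most like 3 of the members were found by Pearson correlation of log2(CPM + 1) over the 18 macrophage libraries, among 8890 genes with a mean of at least 10 CPM. The libraries fall into the groups above, so the value says mainly how alike the group levels are. FBXO27 (0.96), CLIC2 (0.95) and PTGDS (0.94) were nearest to SLC40A1, AK8, TMEM140 and IFI30 (each 0.99) to HMOX1, and GSR, HIP1 (each 0.98) and FARP1 (0.98) to TFRC. AK8 had means of 39.7, 42.7 and 6.43 CPM in Biowire MF, FB+MF and CM+FB+MF and of 0.486 to 0.827 CPM in the digested groups. It passed the filter only through Biowire MF and FB+MF, where HMOX1 was also highest, so the filter itself favours this likeness. GSR, glutathione reductase, had means of 165, 179 and 74.7 CPM in Biowire MF, FB+MF and CM+FB+MF and of 119 to 122 CPM in the digested groups. PTGDS, a prostaglandin D synthase, had means of 469, 132 and 35.5 CPM in the Biowire groups and of 176 to 182 CPM in the digested groups.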

How the data were processed

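The deposited tables hold raw counts of reads per gene, whole numbers that the authors did not normalize. Per the labels' protocols the libraries were made with a stranded total RNA kit from Takara (SMARTer). Per the submitters' processing notes DESeq2, R 4.3.2, HTSeq 0.11.0 and STAR 2.7.9a were among the tools and hg19 was the build named. The strand setting and annotation are not given in the sources used here, so reads of overlapping genes may not be told apart. The deposited normalized tables were not used.

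Counts were tested with edgeR 4.0.16 in R 4.3.3 (TMM, filterByExpr, two-sided quasi-likelihood F test, Benjamini-Hochberg at 0.05) in 13 comparisons. There was 1 fit per table, and 1 of the 18 macrophage libraries on 17919 shared genes for interactions and setting. RPKM used GENCODE 29 exon lengths. The test was checked on simulated counts. No 2 libraries of a group were alike within counting error: over 30 pairs the chi-square of their counts was 2.39 to 37.6 times its degrees of freedom. The alternatives were a replicate block, DESeq2 1.42.0, each library left out, RLE size factors, only the compared groups, no filter, and library totals, the last added after seeing the data. Libraries of the digested groups and of cardiomyocytes with macrophages carry the number in their column's name.

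The members and lists were chosen with earlier results of these data known. Besides the members, named genes are up to 3 of each list with the smallest p in 4 comparisons (Biowire CM+FB+MF and FB+MF against MF, cardiomyocytes, setting MF), and the 3 nearest genes of SLC40A1, HMOX1 and TFRC. BACH1, FTH1P3 and BLVRA in Biowires were added after their values were seen.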

Additional observations from a re-analysis of the deposited data

Results flagged for a closer look

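FTL in cardiomyocytes from CM+FB+MF stood out in replicate 2, at 88.9 CPM, whose gap to the other 3 libraries was large for a group of 4. It was the only such case among 24 groups of 4 tested, and chance gives about 1 in 20.

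The effect of the cell combination on macrophages differed between Biowire and digested settings in 17 interaction values (log2, edgeR adjusted p under 0.05). For FB+MF against MF these were SLC40A1 (-1.15) and SLC11A1 (3.98). For CM+FB+MF against MF they were SLC11A1 (6.24), SLC48A1 (-2.92), TFRC (-2.57), SLC40A1 (-1.95), HMOX1 (-1.80), FTH1 (-1.04) and BLVRB (-0.70). For CM+FB+MF against FB+MF they were TFRC (-3.07), SLC48A1 (-2.70), SLC11A1 (2.26), HMOX1 (-1.70), FTH1 (-1.26), SLC40A1 (-0.80), BLVRB (-0.59) and FTL (-0.42). Setting and table are the same split of the libraries.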

How the results depend on the processing

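Of 1720 values of the members under alternatives, 1682 kept their direction where called and their side of the threshold, 25 lost a call, 13 gained one and 0 turned. Of 925 values with no call either way, 53 had the other sign. Genes called in digested CM+FB+MF against FB+MF were 31, and 53 with no filter on low counts. With each library left out in turn, the genes called ranged from 553 to 844 in Biowire FB+MF against MF (860 with all; 553 without MF replicate 3, 560 without FB+MF replicate 2), from 99 to 180 in digested FB+MF against MF (207; 123 without FB+MF replicate 1, 132, 99 and 132 without MF replicates 1, 2 and 3), and from 19 to 72 in digested CM+FB+MF against FB+MF (20 and 19 without FB+MF replicates 1 and 3, 72 without CM+FB+MF replicate 2). The members called in cardiomyocytes ranged from 0 to 3, against 1 with all. With the replicate block 0 members were called there (SLC40A1 0.65, edgeR adjusted p = 0.0563), and the block changed no other member's call. Deviations of same-numbered libraries from their group means had correlations of -0.24 to 0.36 over the 7 comparisons within a table. No comparison was over 0.1 in every pair, so the numbers were not taken as pairs. All 3 pairs were positive in Biowire CM+FB+MF against MF (0.098 to 0.25) and against FB+MF (0.054 to 0.22). Depth limits the low genes: SLC11A1 in Biowire MF, at 4.6 to 10.6 CPM, and HAMP in cardiomyocytes. The cause of the lost and gained calls was not tested.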
